A study of Mus musculus with 12 samples.

Results

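The bundle of stereocilia on the top of each hair cell is built on actin, and 10 genes of that actin core were followed through the P6 mouse cochlea. They were chosen by symbol, from the known work of their proteins, out of the 28686 gene symbols counted in the series. *Espn*, *Pls1*, *Fscn1* and *Fscn2* encode actin bundlers, *Eps8* and *Eps8l2* encode regulators of stereocilia length, *Triobp*, *Xirp2* and *Grxcr1* encode proteins of the rootlet, of the actin core and its upkeep, and of the base of the bundle, and *Strc* encodes stereocilin, a protein of the links between stereocilia. All 10 symbols were found once, and all 10 had enough reads to be tested.

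RNA-seq was performed on cochleae collected at postnatal day 6 from 6 mutants (*Sox2*CreER/+*Jag1*fl/fl) and 6 littermate controls (*Sox2*+/+). The labels give the strain of every mouse as C57BL/6;129SV, and every pup had been given tamoxifen on P0 and P1. The published methods differ from the labels, naming a C57bl6/J background for the *Sox2* CreER line and FVB/n for the floxed *Jag1* line. In mutants, tamoxifen turns on a CreER recombinase under control of the *Sox2* locus, active in supporting cells, which removes the floxed part of the Notch ligand gene *Jag1*. The controls lacked the CreER allele and came from a cross in which they could carry 1 or 2 floxed *Jag1* alleles, so the genotypes also differ at the *Sox2* locus and in the presence of CreER. The litter and sex of each library are not in the labels. RNA integrity numbers lay between 9.7 and 10, and from 28498549 to 36134983 single-end reads of 100 nucleotides were counted on genes in each library.

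Stereocilia are rods of parallel actin filaments held together by bundling proteins. They stand in rows of graded height because proteins at their tips set how far the filaments grow, and each one tapers at its base into a rootlet that anchors it in the cell. Loss of function in most of these genes causes deafness in mice or humans. The bundles belong to hair cells, whereas *Jag1* was deleted in their neighbours, the supporting cells. The comparison asks whether genes for the bundle differed in level in RNA of the bulk tissue at P6.

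*Jag1* itself was checked first. Levels are given in CPM, the reads of a gene scaled to the total of its library. *Jag1* averaged 102 ± 14.7 CPM (SD, n = 6) over the controls and 36.4 ± 6.55 CPM (SD, n = 6) over the mutants. The highest mutant, at 42.9 CPM, lay below the lowest control, at 83.0 CPM, so that every library matched its label. The log2 fold change was -1.48 (standard error 0.13, adjusted p = 0.000257, edgeR quasi-likelihood test).

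None of the 10 stereocilia genes was called different between the genotypes. Among the 18459 genes tested, 35 had an adjusted p under 0.05 in edgeR's quasi-likelihood test, a background of 0.19%, with 0.108% higher and 0.0813% lower in mutants, and 0 of the 10 were among them. DESeq2, which called 3.35% of the genes, and limma-voom, which called 0.103%, also called 0 of the 10. At an unadjusted p under 0.05, 2 of the 10 passed, *Triobp* and *Pls1*, both lower in mutants, in each of the 3 tools, beside 10.6% of all tested genes in edgeR. Neither kept that pass under every alternative. The smallest adjusted p among the 10 was 0.298 and the largest log2 fold change was 0.274 in size. The fold changes pointed both ways, with 3 above 0 and 7 below 0, and their median was -0.087 beside 0.0029 for all tested genes. An adjusted p that misses the threshold does not show equal levels, and the 95% intervals give what the data allow. No interval reached below 0.648 times or above 1.51 times the control level. In RNA from a bulk tissue, fewer cells of a type and less RNA in each cell cannot be told apart.

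**Figure D1:**
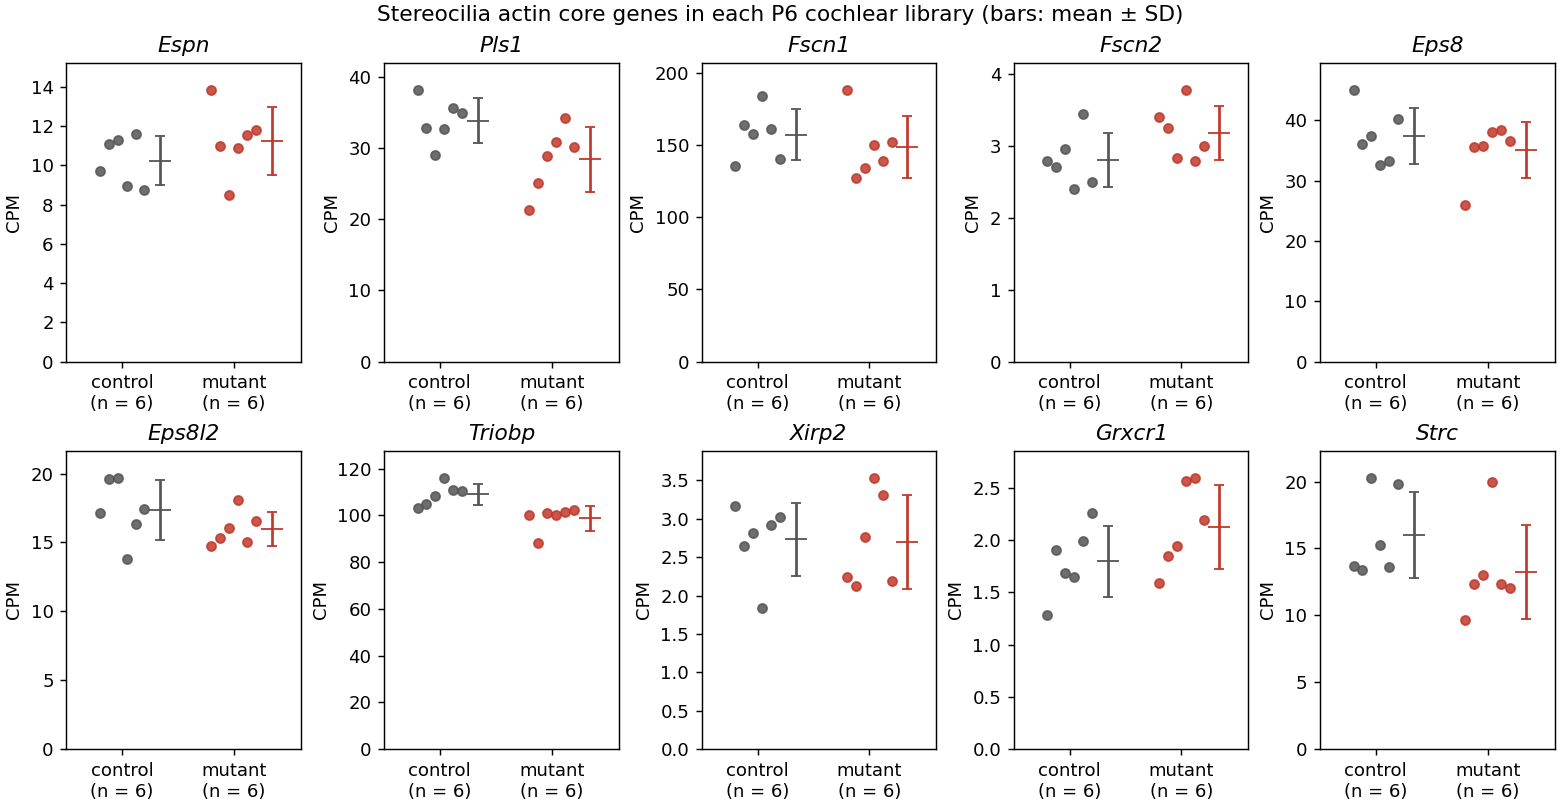
CPM of each stereocilia actin core gene (vertical axes, from 0) in 6 control libraries (grey points) and 6 mutant libraries (red points), with the mean and SD of each genotype beside the points. The control and mutant points overlap for every gene except *Triobp*, whose 6 mutants lie between 88.0 and 102.5 CPM and whose 6 controls lie between 103.1 and 116 CPM.

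Of the 4 bundler genes, *Pls1* was the one with lower counts in mutants at an unadjusted p. *Pls1* encodes plastin 1, also called fimbrin, which packs actin filaments into the tight lattice of the stereocilium. Control libraries held from 29.0 to 38.1 CPM with a median of 33.8 CPM. Mutant libraries held from 21.3 to 34.2 CPM with a median of 29.5 CPM. The ranges overlapped, and 5 of 6 mutants lay below the control median. The mutant mean was 83.9% of the control mean, a log2 fold change of -0.25 (95% interval -0.47 to -0.032, unadjusted p = 0.0275, adjusted p = 0.371, edgeR). An exact permutation test of the 6 mice against 6, two-sided, gave p = 0.0346 before and 0.417 after adjustment over all tested genes. Mutant 1 had the lowest *Pls1* of all libraries, and without it the log2 fold change was -0.18. *Pls1* no longer passed at an unadjusted p in edgeR without control 1 (0.0550), control 5 (0.0515), mutant 1 (0.0504) or mutant 2 (0.0610). Within genotypes, *Pls1* had r = 0.749 with the mean log2 CPM of supporting cell markers and 0.407 with that of hair cell markers. The first of these was not tested.

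*Espn* encodes espin, the bundler that lengthens stereocilia when more of it is made. Its controls lay between 8.74 and 11.6 CPM (median 10.4 CPM) and its mutants between 8.47 and 13.8 CPM (median 11.3 CPM). The 6 controls all fell within the range of the mutants. The log2 fold change was 0.14 (95% interval -0.11 to 0.38, adjusted p = 0.794, edgeR), and 5 of 6 mutants stood above the control median. Without mutant 1 it was 0.069, and without mutant 3 it was 0.21.

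*Fscn1* and *Fscn2* encode fascins, bundlers that cross-link filaments side by side. *Fscn2* is the form known from hair cells and photoreceptors, while *Fscn1* is made in many cell types, neurons among them. *Fscn1* ranged from 135 to 184 CPM in controls (median 159 CPM) and from 128 to 188 CPM in mutants (median 145 CPM), with a log2 fold change of -0.080 (95% interval -0.29 to 0.13, adjusted p = 0.876, edgeR). It was -0.13 without control 1, -0.029 without control 4, -0.16 without mutant 1, -0.040 without mutant 2 and -0.053 without mutant 3. *Fscn2* was far lower in counts. It ranged from 2.399 to 3.44 CPM in controls (median 2.74 CPM) and from 2.79 to 3.77 CPM in mutants (median 3.12 CPM), which stands on 77 to 119 reads a library in controls and 100 to 129 in mutants. All 6 mutants lay above the control median of *Fscn2*, yet the ranges overlapped, and the log2 fold change of 0.18 carried a 95% interval from -0.088 to 0.45 (adjusted p = 0.721, edgeR).

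The fold changes of the paralogues had opposite signs, so their ratio was compared within each library. *Fscn2* stood at 1.30% to 2.14% of *Fscn1* in controls and at 1.81% to 2.54% in mutants. The ratio was higher in mutants by 0.27 on the log2 scale, with 5 of 6 mutants above the control median, and did not pass an exact two-sided permutation test (p = 0.0736, or 0.147 adjusted over the 2 ratios examined). The difference was 0.32 both without control 5 (exact permutation p = 0.0368) and without mutant 1 (exact permutation p = 0.0433), and 0.18 without control 4 (exact permutation p = 0.145).

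**Figure D2:**
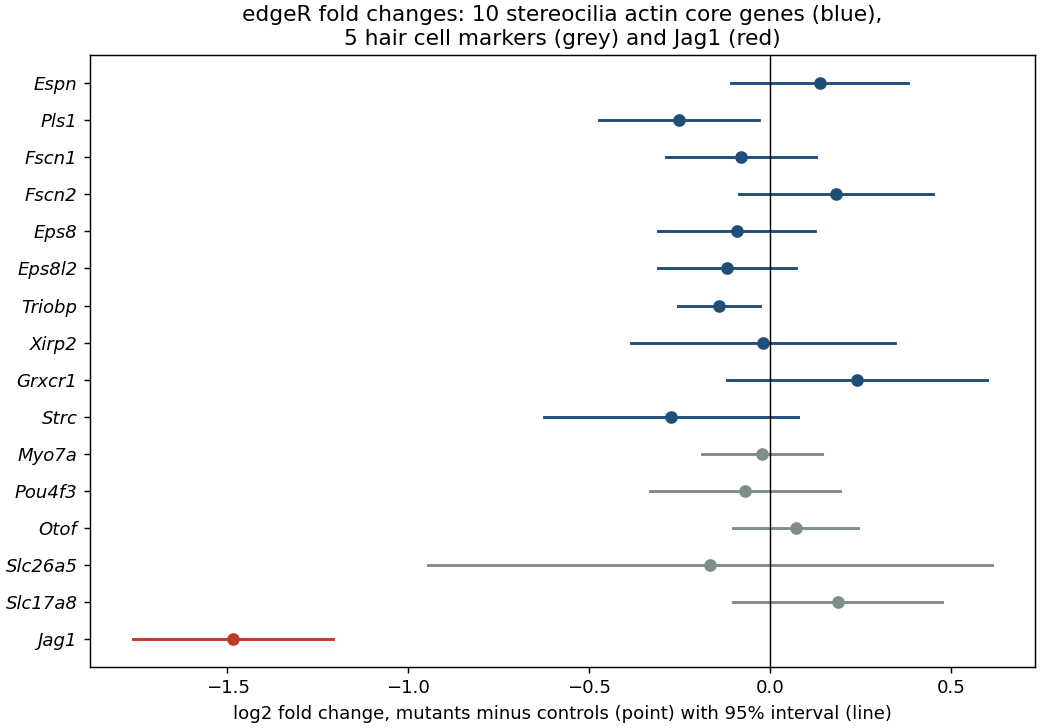
edgeR log2 fold changes of mutants against controls (horizontal axis, points) with 95% intervals (lines) for the 10 stereocilia genes (blue), 5 hair cell markers (grey) and *Jag1* (red). The blue intervals stay between -0.63 and 0.60, those of *Triobp* and *Pls1* end below 0, and *Jag1* stands alone at -1.48.

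The 2 length regulators showed small differences in the same direction. *Eps8* encodes an actin capping and bundling protein that is carried to stereocilia tips and is needed for them to reach full height. It ranged from 32.6 to 45.0 CPM in controls (median 36.7 CPM) and from 25.9 to 38.5 CPM in mutants (median 36.2 CPM). Mutant 1 held the lowest value, and the other 5 mutants, between 35.5 and 38.5 CPM, lay inside the control range. The log2 fold change was -0.093 (95% interval -0.31 to 0.12, adjusted p = 0.860, edgeR). Without mutant 1 it was -0.020, and without control 1 it was -0.040.

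*Eps8l2*, a relative of *Eps8* that maintains the tips of mature stereocilia, ranged from 13.8 to 19.7 CPM in controls (median 17.3 CPM) and from 14.7 to 18.1 CPM in mutants (median 15.7 CPM). The mutants sat within the control range and 5 of 6 lay below its median. The log2 fold change was -0.12 (95% interval -0.31 to 0.072, adjusted p = 0.755, edgeR). Exons of *B230206H07Rik* on the opposite strand cover 32.2% of the annotated exon bases of *Eps8l2*, and the strand setting of the counting is not given in the sources used here, so reads of the pair may not be told apart. *Eps8l2* stood at 38.2% to 54.4% of *Eps8* in controls and at 39.2% to 56.9% in mutants, a log2 difference of -0.017 (exact two-sided permutation test, p = 0.885).

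*Triobp* was the only one of the 10 whose genotypes did not overlap, beside 0.997% of all tested genes that did not overlap, 0.618% with mutants higher and 0.379% with mutants lower. *Triobp* encodes the protein that winds around filaments to form the rootlet, and a further form of it binds actin in many cell types. Controls held from 103.1 to 116 CPM with a median of 109.5 CPM, and mutants from 88.0 to 102.5 CPM with a median of 100.5 CPM. The highest mutant and the lowest control were separated by a narrow gap. The mutants stood at 90.6% of the control mean, a log2 fold change of -0.14 (standard error 0.053, 95% interval -0.26 to -0.029, unadjusted p = 0.0174, adjusted p = 0.298, edgeR). The exact permutation test gave p = 0.00216, the smallest that 6 mice against 6 allow, and 0.217 after adjustment over all tested genes.

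The narrow spread of *Triobp* set it apart within the set, with only 1.48% of tested genes varying less between mice of a genotype. In CPM computed from total counts without TMM factors, its genotypes overlapped. With the neuron and Schwann cell marker scores of each library in the model the log2 fold change was -0.032 (unadjusted p = 0.711, adjusted p = 0.9999, edgeR), and with a correction for GC content it was -0.10 (unadjusted p = 0.0981, adjusted p = 0.6245). The sums of both marker lists were higher in mutants, so the fit with these scores cannot separate them from genotype. The counts are per gene, so the forms of *Triobp* that differ in cell type were not separated, and the same holds for *Espn* and *Xirp2*.

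*Xirp2* encodes a protein with actin-binding repeats that is found in muscle and in hair cell stereocilia, where it takes part in repair of the core. It ranged from 1.84 to 3.17 CPM in controls (median 2.87 CPM) and from 2.12 to 3.53 CPM in mutants (median 2.50 CPM). This was the smallest difference of the 10, with a log2 fold change of -0.021 (95% interval -0.39 to 0.35, adjusted p = 0.990, edgeR) on 59 to 121 reads a library, and leaving out 1 library at a time moved it between -0.11 and 0.039. Because muscle also makes *Xirp2*, a list of 15 skeletal muscle genes was read beside it. Of this list, 4 genes averaged above 1 CPM over the 12 libraries. The list summed to 5.33 to 11.6 CPM in controls and to 7.45 to 14.5 CPM in mutants. The sums did not pass an exact two-sided permutation test (p = 0.173, or 0.231 adjusted over 8 cell type lists). The highest means were those of *Tnnt3* (1.85 CPM in controls, 2.06 CPM in mutants), *Myh8* (1.62 and 2.03 CPM) and *Ttn* (1.15 and 1.66 CPM). *Acta1*, *Myh3*, *Ckm*, *Tnnc2* and *Myog* were each under 0.1 CPM. The share of *Xirp2* reads that came from muscle was not tested.

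*Grxcr1* encodes a glutaredoxin-like protein that stereocilia need to reach their normal width. It ranged from 1.28 to 2.26 CPM in controls (median 1.79 CPM) and from 1.59 to 2.60 CPM in mutants (median 2.07 CPM). Mutants stood at 118% of controls on average, and 5 of 6 lay above the control median. The log2 fold change of 0.24 had a 95% interval from -0.12 to 0.60 (adjusted p = 0.724, edgeR), on 36 to 95 reads a library. Without control 1 it was 0.16. With the neuron and Schwann cell scores in the model it was 0.51 (unadjusted p = 0.0668, adjusted p = 0.9999).

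*Strc* encodes stereocilin, which forms the top connectors between outer hair cell stereocilia and their attachment to the tectorial membrane. It ranged from 13.4 to 20.3 CPM in controls (median 14.5 CPM) and from 9.62 to 19.98 CPM in mutants (median 12.4 CPM). Of the mutants 5 held together between 9.62 and 12.99 CPM, below every control, and mutant 4 stood at 19.98 CPM. The log2 fold change was -0.27 (standard error 0.16, 95% interval -0.63 to 0.077, adjusted p = 0.643, edgeR). Without mutant 4 it was -0.43 (unadjusted p = 0.00548, edgeR), and without control 3 it was -0.20 (unadjusted p = 0.257, edgeR). These were the ends of the 12 fits that leave out 1 library, and the smallest adjusted p over them was 0.179. *Strc* lies on chromosome 2, 15.7 Mb from *Jag1*, and *Xirp2* lies on the same chromosome 69.6 Mb from *Jag1*. The labels do not give the strain of origin of the chromosome 2 carried by each mouse, and its part in the values was not tested.

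On the GRCm38 build, with GENCODE M21 as the annotation, each of the 10 is a protein-coding gene. *Espn* lies on the minus strand at chr4:152120331-152152371 and *Pls1* on the minus strand at chr9:95752642-95845311. The fascin genes lie on plus strands, *Fscn1* at chr5:142960343-142973185 and *Fscn2* at chr11:120361534-120368168. *Eps8* is at chr6:137477245-137654876 on the minus strand and *Eps8l2* at chr7:141338880-141363020 on the plus strand. *Triobp* is at chr15:78947724-79005869, *Xirp2* at chr2:67446002-67526614 and *Grxcr1* at chr5:68031835-68166398, all on plus strands, and *Strc* at chr2:121363728-121387168 on the minus strand. None of the 10 lies next to another. The counts cover all annotated exons of a gene together, untranslated parts included.

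Levels were compared between the genes only after division by length. In controls, *Fscn1* was the highest at 52.2 ± 5.87 CPM per kb of annotated exon (SD, n = 6), followed by *Triobp* at 8.87 ± 0.375 and *Pls1* at 8.70 ± 0.796 CPM per kb. *Eps8l2* at 3.23 ± 0.409, *Eps8* at 3.03 ± 0.374 and *Strc* at 2.57 ± 0.513 CPM per kb formed a middle step. *Grxcr1* at 1.68 ± 0.315, *Fscn2* at 1.33 ± 0.177 and *Espn* at 1.24 ± 0.152 CPM per kb came next, and *Xirp2* was the lowest at 0.228 ± 0.0396 CPM per kb. From *Fscn1* to *Xirp2* the levels spanned 228-fold. Neighbours in this order overlapped between control mice in 5 of 9 pairs, which were *Triobp* with *Pls1*, *Eps8l2* with *Eps8*, *Eps8* with *Strc*, *Grxcr1* with *Fscn2*, and *Fscn2* with *Espn*. With the longest transcript in place of all annotated exons, *Eps8* stood 4th and *Eps8l2* 5th, and *Espn* stood 7th, ahead of *Grxcr1* and *Fscn2*. *Fscn1* and *Triobp*, the top pair in both orders, are also made outside hair cells, so their levels in this tissue are not those of the bundle. For the other members too, reads from hair cells and reads from other cells were not separated.

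**Figure D3:**
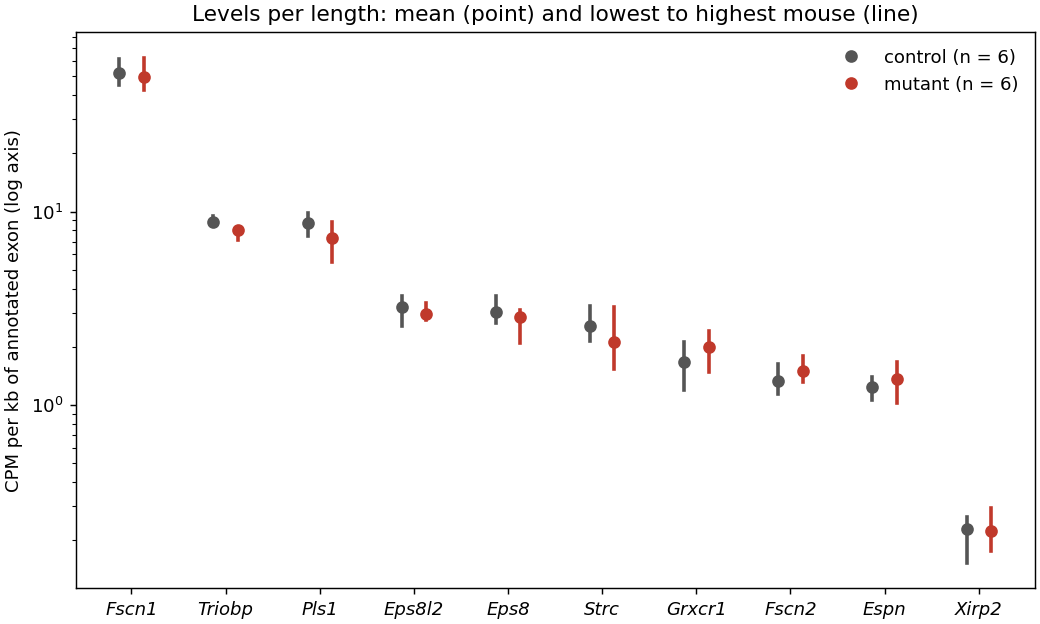
CPM per kb of annotated exon (vertical log axis) of the 10 genes in order of their control mean, for controls (grey) and mutants (red). Points are means over 6 mice and lines run from the lowest to the highest mouse, and the lines of the 2 genotypes overlap for every gene but *Triobp*.

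Hair cell genes from outside these lists were read beside the members. The summed level of 18 hair cell markers, of which all but *Atoh1* averaged above 1 CPM, lay between 277 and 335 CPM in controls (median 291 CPM) and between 272 and 345 CPM in mutants (median 290 CPM). The log2 difference of the sums was 0.031 (exact two-sided permutation test, p = 0.710, and 0.710 adjusted over 8 cell type lists). *Myo7a*, a myosin of all hair cells, averaged 16.5 ± 1.16 CPM over the controls and 16.2 ± 1.52 CPM over the mutants (SD, n = 6 each), with a 95% interval of its log2 fold change from -0.19 to 0.14. *Pou4f3*, a hair cell transcription factor, had a log2 fold change of -0.069, and *Otof*, needed for transmitter release by inner hair cells, of 0.070. *Slc26a5*, the outer hair cell motor prestin, had one of -0.17 with a standard error of 0.36, and *Slc17a8*, the inner hair cell glutamate transporter, one of 0.19. Of the 18 markers 0 were called, and 1 passed at an unadjusted p, *Pvalb*, which spiral ganglion neurons also make and which was singled out after its value was seen (log2 fold change 1.42, adjusted p = 0.146, edgeR). *Pvalb* averaged 12.5 CPM over the controls and 33.3 CPM over the mutants. It is part of the sum of the 18 markers, so the sign of the small log2 difference of the sums may rest on it. The sum was not tested without it. Of the 18 log2 fold changes, 7 were above 0, and their median was -0.012.

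The summed neuron and Schwann cell markers were higher in mutants, although edgeR called 0 of the 15 neuron and 0 of the 13 Schwann cell markers singly. At an unadjusted p under 0.05, 13 of the 15 neuron and all 13 Schwann cell markers passed, all higher in mutants, beside 6.52% of all tested genes. The median log2 fold changes of the lists were 2.51 and 1.72, beside 0.0029 for all tested genes. The neuron markers, of which all but *Prph* averaged above 1 CPM in controls, summed to 145 to 321 CPM in controls (median 202 CPM) and 206 to 1422 CPM in mutants (median 568 CPM, exact permutation p = 0.0108, adjusted over 8 lists 0.0433). All 13 Schwann cell markers averaged above 1 CPM in both genotypes, and they summed to 407 to 1467 CPM in controls (median 884 CPM) and 1164 to 6324 CPM in mutants (median 2370 CPM, exact permutation p = 0.00866, adjusted 0.0433). The sums of 12 supporting cell markers (2571 to 2837 CPM in controls, 2173 to 2674 CPM in mutants, adjusted exact permutation p = 0.125), 9 macrophage markers (328 to 417 and 265 to 361 CPM, adjusted p = 0.0808) and 8 mesenchyme markers (9437 to 11572 and 8926 to 10445 CPM, adjusted p = 0.125) were lower on average in mutants and did not pass after adjustment. Of the 12 supporting cell markers edgeR called 1, *Lfng*, which encodes a modifier of Notch receptors and was singled out after its value was seen. It was lower in mutants (log2 fold change -0.45, adjusted p = 0.0204). At an unadjusted p under 0.05 there were 3, all lower, beside 4.04% of all tested genes lower. The others were *Sox2* (-0.45, adjusted p = 0.143) and *S100a1* (-0.32, adjusted p = 0.276), and 4 of the 12 log2 fold changes were above 0. With the neuron and Schwann cell scores in the edgeR model, 0 of the 10 stereocilia genes were called, *Espn* went from 0.14 to -0.0067 and *Fscn2* from 0.18 to -0.011, and the log2 fold changes of *Pls1* and *Strc* shrank to -0.10 (unadjusted p = 0.511) and -0.13. That of *Eps8l2* grew to -0.23. All 6 mutants lay above the control median of both the neuron and the Schwann cell sum, so these scores overlap with genotype. In this fit, a part of genotype and a part of the scores cannot be told apart. With the hair cell score in the model, *Strc* stood at -0.38 (unadjusted p = 0.00499, adjusted p = 0.151).

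Between mice of the same genotype, the 10 genes did not rise and fall as 1 group. After each library was set against the mean of its genotype, the 45 pairs of genes had correlations over the 12 libraries from -0.838, between *Fscn1* and *Eps8*, to 0.738, between *Pls1* and *Eps8*, with a median of 0.153. Of the 45, 9 were above 0.5 and 2 were below -0.5. The points of each pair share their libraries and their depth, so these values describe the libraries.

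*Strc* and *Xirp2* followed the hair cell markers most closely over all 12 libraries and in mutants, but not in controls or without the farthest libraries. Over 12 libraries, *Strc* had r = 0.770 with the hair cell marker score (permutation within genotypes, p = 0.0113) and rho = 0.636 (p = 0.0317), with r = 0.568 in controls and 0.877 in mutants. Without mutants 4 and 2, the libraries farthest from the median score, r was 0.660. *Xirp2* had r = 0.732 (permutation p = 0.00459) and rho = 0.692 (p = 0.0282), with 0.461 in controls, 0.888 in mutants and 0.602 without the same libraries. Adjusted over the 18441 tested genes outside the marker list, neither passed (0.734 for *Strc* and 0.688 for *Xirp2*). *Eps8* had r = 0.512 over 12 libraries, with 0.461 in mutants. Its r was 0.710 in controls and 0.703 without mutants 4 and 2, above *Strc* and *Xirp2* in both. *Fscn1* went from r = -0.189 over 12 libraries to -0.738 without mutants 4 and 2, so the order of the genes depended on the libraries used. Mutant 4, the *Strc* library that stood above the other mutants, also had the highest hair cell marker sum of all 12 libraries at 345 CPM, the highest *Xirp2* at 3.53 CPM and the highest *Fscn2* at 3.77 CPM. *Espn*, a core bundler, had r = -0.257.

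*Fscn1*, *Eps8* and *Pls1* varied with the GC content of what each library had counted. The transcripts of these genes differ in composition, with 60.6% GC in *Fscn1* and 62.1% in *Espn* against 47.6% in *Eps8* and 42.7% in *Pls1*. The mean deviation of GC-rich genes minus that of GC-poor genes lay between -0.26 and 0.34 (log2) in controls and between -0.22 and 0.29 in mutants, and did not pass a test between genotypes (difference -0.14, exact two-sided permutation p = 0.258). Against this measure *Eps8* had r = -0.821 (permutation p = 0.0115) and rho = -0.811 (p = 0.00793), with -0.734 in controls, -0.926 in mutants and -0.850 without mutant 1 and control 3, the farthest libraries. *Fscn1* had r = 0.776 (permutation p = 0.00820) and rho = 0.727 (p = 0.0136), with 0.684 in controls, 0.883 in mutants and 0.747 without the same libraries. *Pls1* had r = -0.703 (permutation p = 0.00993), rho = -0.594 (p = 0.0438), and -0.215 without those libraries, so that its relation rested on them. Adjusted over the 18459 tested genes, the p-values of the 3 genes were 0.128 to 0.139, and none passed. The other members had smaller correlations, also those of like composition. *Espn* had r = 0.562, or 0.224 without mutant 1 and control 3. The values were 0.334 for *Triobp* (60.7% GC), 0.330 for *Fscn2* (59.1%) and -0.016 for *Eps8l2* (57.3%). They were -0.137 for *Strc* (57.2%), -0.124 for *Grxcr1* (44.7%) and -0.263 for *Xirp2* (42.2%). Mutant 1, the most GC-rich mutant library, had the highest *Fscn1* and *Espn* and the lowest *Eps8* and *Pls1* of the 12. With a correction for GC content *Pls1* had a log2 fold change of -0.29 (unadjusted p = 0.00217, adjusted p = 0.111, edgeR).

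**Figure D4:**
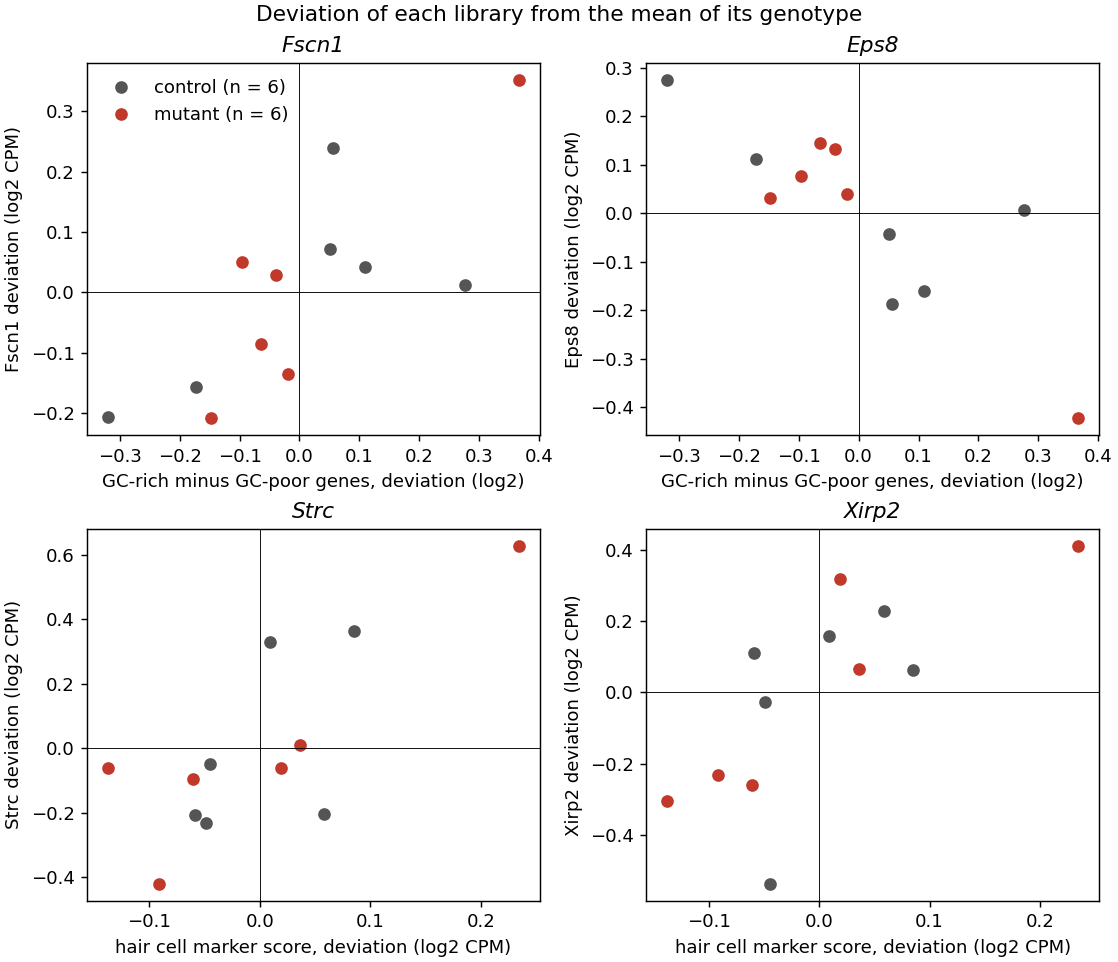
Deviation of *Fscn1* and *Eps8* (top, vertical axes, log2 CPM) against the GC-rich minus GC-poor deviation of each library, and of *Strc* and *Xirp2* (bottom) against the hair cell marker score, each centred on the mean of its genotype. Each point is 1 library (6 controls in grey, 6 mutants in red), *Fscn1* rises and *Eps8* falls with the GC measure, and mutant 4 is the point at the upper right of both lower panels.

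The genes whose deviations were most like those of each member were found over the same 12 libraries, by Pearson correlation among genes of at least 1 CPM. *Eps8* was most like *Hook1* (r = 0.973) and *Nr2c1* (0.971), *Fscn1* most like *Emc10* (0.966) and *Map3k10* (0.961), and *Pls1* most like *Six4* (0.945) and *Bcl2* (0.945). *Strc* was most like *Rgmb* (0.936) and *Neurl4* (0.923), *Triobp* most like *Bambi* (0.925) and *Armc7* (0.914), and *Eps8l2* most like *Adamtsl3* (0.916) and *Plekha6* (0.910). For *Espn* they were *Haghl* (0.894) and *Yam1* (0.873), for *Fscn2* *Ikbke* (0.896) and *Ddx25* (0.862), for *Grxcr1* *5830428H23Rik* (0.905) and *Six5* (0.882), and for *Xirp2* *Mroh7* (0.847) and *Erich3* (0.845). Each was picked for its high value among all genes of that level, so these values are descriptions of the libraries and carry no test.

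The wider machinery of the bundle was read from 3 lists of other stereocilia genes. Of 51 genes listed, 50 were tested, *Eps8l3* having too few reads, and 0 of the 50 were called, beside the background of 0.19%. At an unadjusted p under 0.05 there were 5, 1 higher and 4 lower in mutants, beside 6.52% of all tested genes higher and 4.04% lower.

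Among 14 further genes of the actin core and its bundlers, 0 were called and 3 had an unadjusted p under 0.05, all lower, with 2 of 14 log2 fold changes above 0 and a median of -0.10. *Lcp1*, which encodes plastin 2, a bundler best known from white blood cells, averaged 50.4 ± 5.08 CPM over the controls and 41.7 ± 4.50 CPM over the mutants (SD, n = 6 each), with a log2 fold change of -0.27 (adjusted p = 0.167, edgeR). The macrophage marker sum given above was also lower on average in mutants, and its part in that value was not tested. *Actg1*, the gamma actin of the core, averaged 309 ± 14.9 and 277 ± 18.9 CPM, with a log2 fold change of -0.16 (adjusted p = 0.330, edgeR).

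Among 21 tested genes of length control and the tip, 0 were called and 6 log2 fold changes were above 0, with a median of -0.036. *Capza1*, a subunit of the capping protein that closes filament ends, was the furthest from 0 of all 50. It averaged 24.5 ± 2.42 CPM over the controls and 37.5 ± 8.59 CPM over the mutants (SD, n = 6 each), with a log2 fold change of 0.61 (95% interval 0.30 to 0.93, adjusted p = 0.0920, edgeR). *Twf2*, which encodes twinfilin 2, a protein that caps filaments in the shorter rows of the bundle, had a log2 fold change of -0.13 (adjusted p = 0.630).

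Among 15 genes of the rootlet, the base and the cuticular plate, 0 were called and 10 log2 fold changes were above 0, with a median of 0.012. *Fam65b*, now called *Ripor2*, encodes a protein at the base of stereocilia. Its means were 25.4 ± 3.23 CPM over the controls and 20.9 ± 2.35 CPM over the mutants (SD, n = 6 each), with a log2 fold change of -0.28 (adjusted p = 0.236, edgeR). *Sptan1*, the alpha spectrin of the cuticular plate and of many other cells, had one of 0.095 (adjusted p = 0.730).

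**Figure D5:**
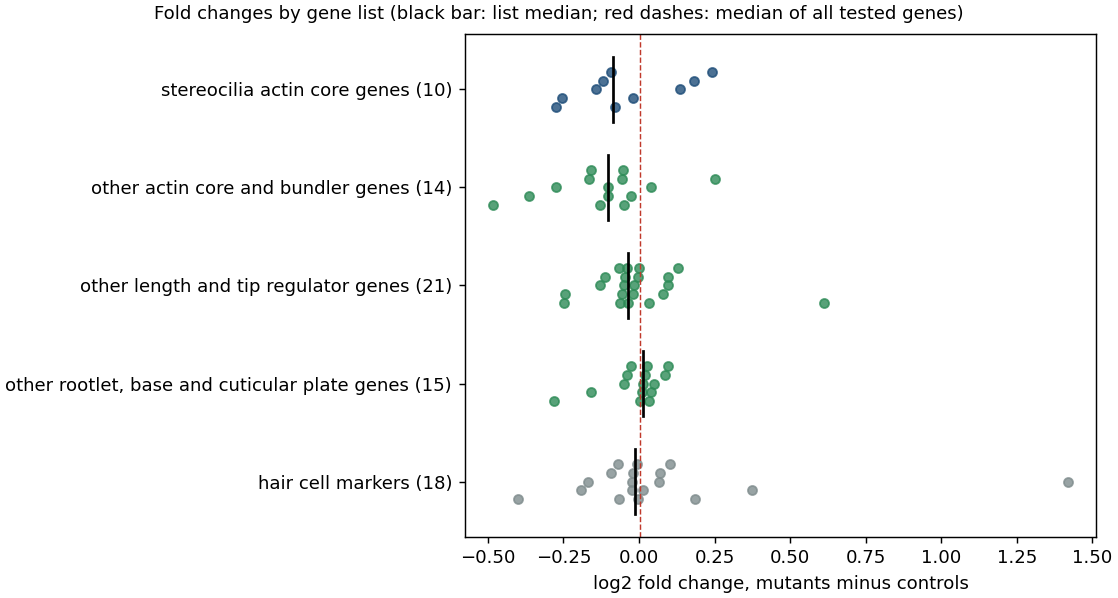
edgeR log2 fold changes of mutants against controls (horizontal axis) for each gene (points) of the 10 stereocilia actin core genes, of 3 lists of other stereocilia genes and of the hair cell markers, with the number tested in brackets. Black bars mark list medians, from -0.10 to 0.012, and the red dashes mark the median of all tested genes at 0.0029. *Capza1* at 0.61 and *Pvalb* at 1.42 are the points at the far right of their lists.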

How the data were processed

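RNA from the cochleae of 12 mice was sequenced by the authors. Per the submitters' processing notes, Trimmomatic 0.32, STAR 2.4.2a, HTSeq 0.9.1, DESeq2 1.10.1 and the GRCm38.p4 build were used. The annotation release and strand setting are not given in the sources used here. The deposited counts are whole reads per gene symbol as the authors counted them, neither normalized nor pooled, and all 12 columns were matched to samples by their labels. A second deposited table, of the authors' own DESeq2 comparison (mean signal, fold changes, standard errors, statistics and p-values), was not used.

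The 18459 genes whose mean count over the libraries reached 5 were compared by edgeR 4.0.16 in R 4.3.3 (quasi-likelihood F-test, TMM normalization, robust, no covariates). Benjamini-Hochberg adjustment ran over all tested genes, with 0.05 as the threshold. CPM values use TMM factors. The standard error is the log2 fold change divided by the square root of F. Single values were compared by exact permutation of log2(CPM + 0.1) over the 924 divisions of the mice, and correlations used log2 CPM with a prior count of 2, centred on each genotype, with 100000 permutations within genotypes. A score is the mean log2 CPM of a marker list. The tests were checked on simulated data. Libraries of a genotype differed by more than counting error (chi-square per degree of freedom 13.7 to 72.1 over 30 pairs). The labels call them replicates without saying more, so p-values measure the spread between these samples.

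The genes named are the 10 members, the 2 with the smallest p in each of the 3 other stereocilia lists and any called there, *Jag1*, 5 hair cell markers and the 2 genes most like each member. Other genes, such as markers at low levels, a gene that could not be tested and overlapping genes, were named after their values were seen. The members and lists were chosen with earlier results of these data known. Alternatives were DESeq2 1.42.0, limma 3.58.1 with voom weights, upper-quartile and RLE factors, other filters, a fit without robust estimation, replicate numbers as a block, marker scores as covariates, a threshold of 0.01, a pseudocount of 1, CPM without TMM factors and leaving out each library. A correction for GC content in 20 bins was added after the data were examined. In GENCODE M21 on GRCm38, 94.7% of the 28686 symbols had a match, which included all 10 members, and 654 matches used an older symbol.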

Additional observations from a re-analysis of the deposited data

Results flagged for a closer look

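In 5 of 40 sets of 6 libraries examined, 1 library stood far from the other 5 by Dixon's criterion, which chance alone meets in about 5% of sets. *Eps8* was at 25.9 CPM in mutant 1 and between 35.5 and 38.5 CPM in the other mutants. Without mutant 1, all mutant values of *Eps8* fall inside the control range. *Triobp* was at 88.0 CPM in mutant 2 and between 100.1 and 102.5 CPM in the other mutants, and without mutant 2 its log2 fold change was -0.11. *Strc* was at 19.98 CPM in mutant 4 and between 9.62 and 12.99 CPM in the other mutants. The summed supporting cell markers were at 2173 CPM in mutant 2 and between 2515 and 2674 CPM in the other mutants, so that mutant 2 was low in both this sum and *Triobp*. The summed dividing cell markers were at 72.1 CPM in control 1 and between 87.0 and 95.4 CPM in the other controls.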

How the results depend on the processing

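The count of 0 called stereocilia genes held under every alternative run and in each of the 12 fits without 1 library. The number of all genes called moved from 35 to 619 with DESeq2, 19 with limma-voom, 57 with no filter, 131 with the replicate number as a block, 105 with the hair cell score as a covariate, 1 with both the neuron and the Schwann cell score, and 8 at a threshold of 0.01. It was 42 with the GC correction and 14 to 357 when 1 library was left out, the 357 without mutant 5. The cause was not tested. Of the 10 stereocilia genes, those whose genotypes did not overlap numbered 0 without TMM factors. They numbered 1 to 2 when 1 library was left out, *Strc* joining *Triobp* without mutant 4. The share of all tested genes that did not overlap, 0.997% with TMM factors and all 12 libraries, is not given for these settings. Both scores together turned *Espn* to -0.0067 and *Fscn2* to -0.011. Leaving out 1 library turned *Xirp2* in some fits (-0.11 to 0.039), as it did the *Eps8l2* to *Eps8* ratio (-0.079 to 0.030), the hair cell marker sum (-0.0081 to 0.067) and the dividing cell marker sum (-0.088 to 0.017). The *Fscn2* to *Fscn1* ratio kept its direction (0.18 to 0.32). Whether replicate numbers pair the samples was not settled. Same-numbered libraries correlated at -0.19 to 0.27, above 0.1 in 3 of 6 pairs, and 2 controls and 2 mutants correlated best with their own number. Under the block the smallest adjusted p of a stereocilia gene was 0.480, and the ratios had exact sign-flip p-values of 0.250 and 0.938. *Grxcr1*, *Xirp2* and *Fscn2* stood on the fewest reads of the 10, at most 129 a library, and counting error was not separated from the spread between mice.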
